A study of Homo sapiens with 12 samples.

Results

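Enhancer coactivators and the elongation kinase P-TEFb were followed as 9 genes of the 20531 listed for SKBR-3 cells. They were taken by symbol and are the bromodomain readers BRD2 and BRD3, the histone methyltransferases MLL2 and MLL3, the acetyltransferases EP300 and CREBBP, the P-TEFb kinase CDK9 with its cyclin CCNT1, and the P-TEFb inhibitor HEXIM1. MLL2 is now named KMT2D and MLL3 is now named KMT2C. RNAseq was performed on 12 libraries of SKBR-3, a breast carcinoma cell line with HER2 amplification, in a design that crossed a transcription factor knockdown with a HER2 kinase inhibitor. The FOXA1 siRNA pool, or an NT (non-targeting) pool as control, was given for 48 hours before 24 hours of 300 nM lapatinib or of its vehicle DMSO, which made 4 groups with 3 replicates in each. All groups shared the same cell line, medium and transfection, and the FOXA1 pool lowers the transcript without removing the gene. Lapatinib inhibits the EGFR and HER2 kinases, and FOXA1 is a pioneer factor that opens enhancers in luminal breast cells.

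At an active enhancer, MLL2 and MLL3 methylate histone H3 and EP300 and CREBBP acetylate histones, and BET bromodomain proteins bind the acetylated tails. BET proteins also help to recruit P-TEFb, in which CDK9 pairs with a T-type cyclin and phosphorylates RNA polymerase II and its pausing factors so that paused polymerase enters elongation. HEXIM1, bound to the 7SK RNA with LARP7 and MEPCE, holds P-TEFb inactive, and the HEXIM1 gene is a well-known pharmacodynamic marker of BET inhibition.

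In the RefSeq annotation of GRCh38.p14 the members lie on 7 chromosomes, with BRD3 and CDK9 on chr9 (chr9:134030305-134068548 and chr9:127786034-127790792) and CCNT1 and MLL2 on chr12 (chr12:48688458-48716707 and chr12:49018978-49060794). HEXIM1 lies at chr17:45148475-45152099, BRD2 at chr6:32968594-32981505, MLL3 at chr7:152134925-152436003, CREBBP at chr16:3725054-3880713 and EP300 at chr22:41092592-41180077. The 250 bases before an annotated start are shown for HEXIM1 (chr17:45148225-45148474, plus strand), which rose with the drug where CDK9 did not pass the test. They are also shown for BRD3 (chr9:134068027-134068276, minus strand) and CDK9 (chr9:127785784-127786033, plus strand), which fell with the FOXA1 pool. The BRD3 start used lies inside the gene span given above, so the bases shown for BRD3 fall within that span and not before its outer end. Capitals mark GC boxes (GGGCGG) and CCAAT boxes (CCAAT) on either strand.
HEXIM1: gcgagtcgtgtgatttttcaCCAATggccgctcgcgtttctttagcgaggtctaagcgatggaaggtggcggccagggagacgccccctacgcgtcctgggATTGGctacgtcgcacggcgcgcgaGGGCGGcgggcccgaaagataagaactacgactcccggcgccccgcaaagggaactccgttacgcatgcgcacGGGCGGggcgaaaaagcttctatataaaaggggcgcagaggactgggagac
BRD3: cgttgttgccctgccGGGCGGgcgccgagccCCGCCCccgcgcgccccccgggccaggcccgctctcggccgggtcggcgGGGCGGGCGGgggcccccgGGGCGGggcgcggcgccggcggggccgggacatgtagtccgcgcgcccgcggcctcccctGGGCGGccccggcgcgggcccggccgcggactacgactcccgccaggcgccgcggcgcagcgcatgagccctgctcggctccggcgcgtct
CDK9: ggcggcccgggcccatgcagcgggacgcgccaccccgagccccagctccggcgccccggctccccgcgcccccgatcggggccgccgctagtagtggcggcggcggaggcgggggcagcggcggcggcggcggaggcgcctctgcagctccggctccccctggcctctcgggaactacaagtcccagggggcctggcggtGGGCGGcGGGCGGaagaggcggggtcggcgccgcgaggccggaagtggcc

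RefSeq start windows of 300 bases (250 before and 50 after a start) were found for all 9 members, 14 windows in all. A GC box was present in 11 of the 14 windows, against 45% of 35116 windows of all genes, and the median GC content was 68.2% in the members' windows and 58.7% in all. A CCAAT box was present in 2 windows, those of HEXIM1 and 1 of the 2 CCNT1 starts, against 34.6% of all windows, and HEXIM1 held 2 such boxes. The forkhead letters GTAAACA and GTCAACA, searched on both strands, were in none of the 14 windows and in 5.62% of all windows. These matches describe letters in a short window only, and binding of any factor was not measured here.

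The libraries held 25749578 to 32271850 estimated counts, and counts were scaled between libraries by edgeR's TMM factors (normalized counts). ERBB2, the HER2 gene, ranked 11 by mean TPM, the length-normalized transcript share, and KRT8, KRT18, KRT19 and EPCAM were high, while the epithelial cadherin CDH1 was nearly absent (2 to 19 counts), as were the hormone receptor PGR (0 to 1) and the leukocyte gene PTPRC (0 to 5). Of further marker genes of other cell types, CD3E (1 to 9 counts), COL3A1 (0 to 3) and PECAM1 (0 to 6) were nearly absent. The collagen gene COL1A1 was present in every library (240 to 546 counts, 2.74 to 5.58 TPM). The FOXA1 transcript itself was 8446, 8308 and 8767 normalized counts with NT siRNA and DMSO and 1160, 1362 and 1564 with the FOXA1 pool (log2 fold change -2.63 ± 0.10 SE), and in lapatinib it was 12670, 12170 and 13180 against 1642, 1889 and 2384 (-2.69 ± 0.12). Within each group, replicate 2 stood apart from replicates 1 and 3 (chi-square per degree of freedom of 12.7 to 18.5 against 3.75 to 5.94 between 1 and 3), and calls that depended on such libraries are given with and without them. The labels number the replicates but do not say that they were separate cultures, so p-values measure only the spread between these samples. Fewer cells of a kind and less RNA per cell cannot be told apart in bulk libraries.

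Per transcript length, BRD2 was the most abundant of the 9 genes and MLL2 or BRD3 the least. In NT siRNA and DMSO the mean level was 151.1 ± 4.67 TPM (SD, n = 3) for BRD2, 56.2 ± 2.44 for HEXIM1, 35.9 ± 1.34 for EP300, 31.7 ± 2.33 for CDK9, 23.3 ± 0.972 for MLL3, 21.3 ± 0.172 for CCNT1, 19.4 ± 1.08 for CREBBP, 15.6 ± 0.815 for BRD3 and 13.8 ± 1.70 for MLL2. Only BRD3 and MLL2, the last neighbours in that order, overlapped in TPM between libraries. BRD2, HEXIM1 and EP300 held the first 3 places in all 4 groups, and their ranges did not overlap within any group. Lapatinib with NT siRNA moved MLL3 above CDK9 (34.1 ± 1.55 against 31.1 ± 0.499 TPM) and BRD3 above CREBBP and CCNT1 (27.96 ± 1.61, 25.2 ± 1.05 and 21.6 ± 1.60 TPM). With the FOXA1 pool and DMSO, BRD3 was last (11.8 ± 0.311 TPM), overlapping MLL2 (11.9 ± 1.69), and CDK9 overlapped MLL3. In the FOXA1 pool with lapatinib, neighbours overlapped for CDK9 with CREBBP and for BRD3 with CCNT1.

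**Figure D1:**
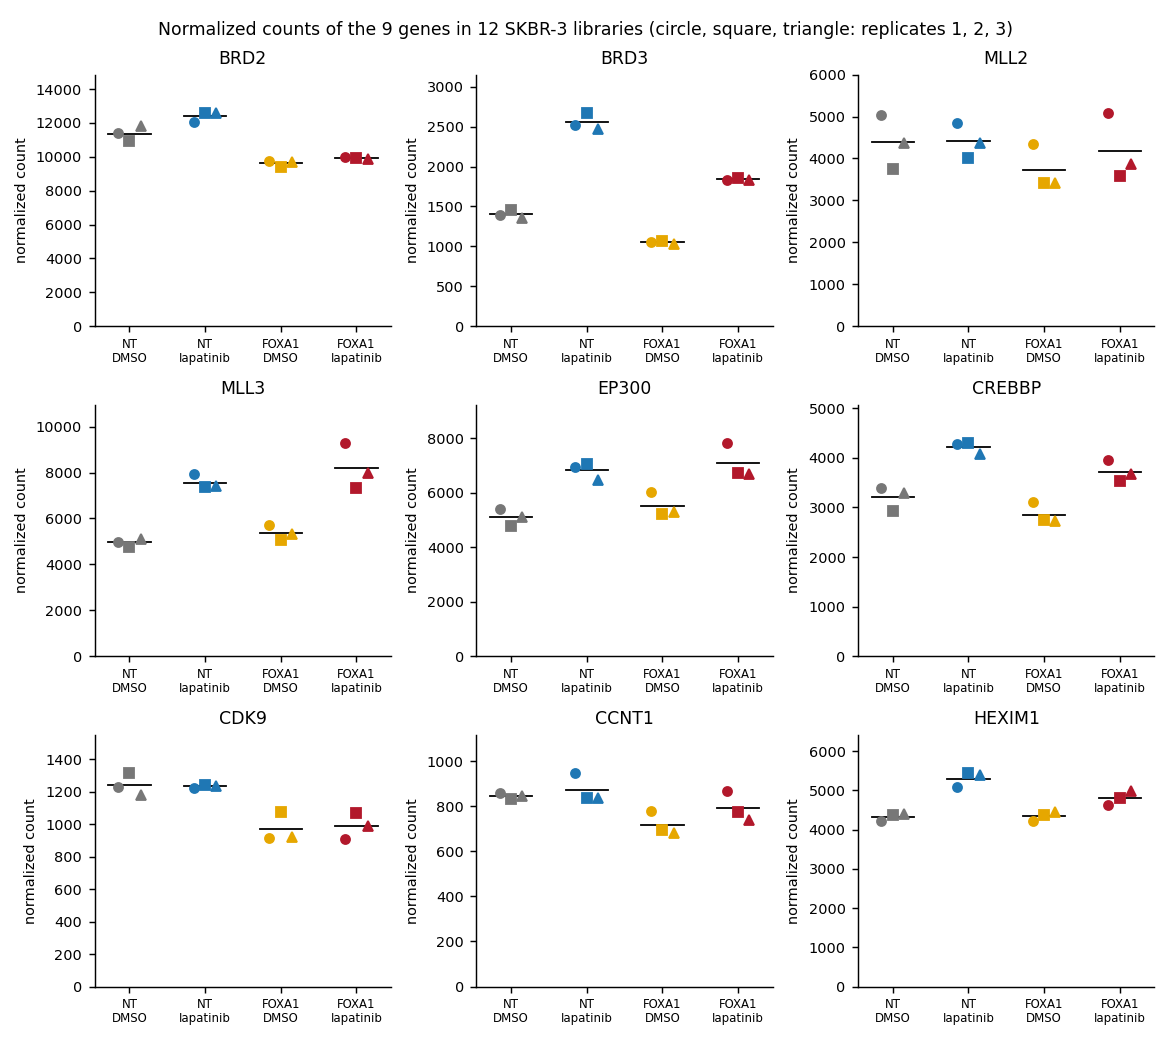
Normalized counts (y axes, from 0) of the 9 genes in the 4 groups of siRNA and drug (x axes), with a point per library shaped by replicate number and a line at the group mean. BRD3 lay between 2471 and 2672 in the 3 lapatinib libraries with NT siRNA, above 1359 to 1452 in DMSO, while CDK9 overlapped between drug and DMSO, and MLL2 was highest in replicate 1 of every group.

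Lapatinib was compared with DMSO in the NT siRNA cells to ask how the transcripts of this machinery respond to HER2 kinase inhibition. BRD3, MLL3, EP300, CREBBP and HEXIM1 rose, with a smaller rise of BRD2, and the P-TEFb subunits CDK9 and CCNT1 and the methyltransferase MLL2 did not pass the test. In all, 6 of the 9 members rose (edgeR's quasi-likelihood test, Benjamini-Hochberg adjusted p under 0.05), where 30.5% of the 13713 genes tested rose. No member fell, where 29.2% of genes did. None reached a log2 fold change of 1, which 13.8% of genes passed in either direction. The drug and DMSO libraries did not overlap for 6 members, all higher with lapatinib. Of all genes, 32.8% were higher and 33.5% lower without overlap.

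Of the BET readers, BRD3 was 1399, 1452 and 1359 normalized counts in DMSO and 2520, 2672 and 2471 in lapatinib. The drug and control libraries were well apart, with a log2 fold change of 0.89 ± 0.058 (SE, n = 3 per group; edgeR adjusted p = 8.27e-06), the largest of the 9. BRD2, its more abundant paralog, was 11390, 10930 and 11790 in DMSO and 12060, 12570 and 12590 in lapatinib. Its libraries did not overlap either, but the rise was small (0.15 ± 0.045, edgeR adjusted p = 0.0198). That call was lost with no filter on low counts (adjusted p = 0.0894) and when a library was left out, for DMSO replicate 1 (0.0677), replicate 2 (0.0987) or replicate 3 (0.0530) or lapatinib replicate 3 (0.0632). Without all replicate 2 libraries the BRD2 change was 0.098 (adjusted p = 0.0555).

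Between the methyltransferases the response was uneven. MLL3 was 4991, 4767 and 5116 normalized counts in DMSO and 7930, 7354 and 7391 in lapatinib, a change of 0.63 ± 0.052 (edgeR adjusted p = 2.35e-05) with no overlap. MLL2 was 5048, 3752 and 4367 in DMSO and 4853, 4014 and 4366 in lapatinib. These overlapped throughout, and the log2 fold change was 0.030 ± 0.11 (edgeR adjusted p = 0.830). MLL2 varied more between replicates than any other member, and replicate 1 held its highest value in each of the 4 groups.

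The acetyltransferases, which acetylate histone H3 and H4 tails and many factors, rose by like amounts. EP300 was 5408, 4776 and 5104 normalized counts in DMSO and 6960, 7036 and 6448 in lapatinib (0.44 ± 0.059, edgeR adjusted p = 0.000299). CREBBP, which encodes the close relative CBP, was 3401, 2930 and 3294 in DMSO and 4284, 4296 and 4084 in lapatinib (0.42 ± 0.062, edgeR adjusted p = 0.000505). Every lapatinib library exceeded every DMSO library for both genes.

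P-TEFb itself and its inhibitor parted. The kinase CDK9 was 1231, 1314 and 1181 normalized counts in DMSO and 1221, 1241 and 1237 in lapatinib, inside the DMSO range, with a log2 fold change of 0.011 ± 0.065 (edgeR adjusted p = 0.895) whose sign turned under other scalings. The cyclin CCNT1 was 859.0, 833.9 and 844.6 in DMSO and 946.4, 834.9 and 836.2 in lapatinib, overlapping, with 0.066 ± 0.074 (edgeR adjusted p = 0.471). HEXIM1 was 4218, 4360 and 4407 in DMSO and 5075, 5434 and 5393 in lapatinib. No HEXIM1 library of the drug overlapped a control, and the log2 fold change was 0.31 ± 0.049 (edgeR adjusted p = 0.000699), called in all 16 alternative fits.

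Lapatinib was next compared with DMSO in cells given the FOXA1 pool. BRD3, MLL3, CREBBP, EP300 and HEXIM1 rose again, and 5 of 9 members passed, where 29.0% of 13745 genes rose. No member fell (29.1% of genes did), and none reached a log2 fold change of 1 (10.1% of genes). Drug and DMSO libraries did not overlap for 6 members, all higher, where 32.2% of all genes were higher and 33.1% lower without overlap. BRD3 went from 1057, 1066 and 1024 normalized counts to 1829, 1851 and 1833 (0.82 ± 0.047, edgeR adjusted p = 6.10e-06), and its libraries were tight and far apart. MLL3 went from 5725, 5080 and 5338 to 9279, 7333 and 7989 (0.62 ± 0.086, edgeR adjusted p = 0.000417), also without overlap.

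CREBBP rose from 3103, 2740 and 2721 normalized counts to 3950, 3540 and 3664 (0.39 ± 0.066, edgeR adjusted p = 0.00126). EP300 rose from 6037, 5208 and 5283 to 7818, 6720 and 6702 (0.37 ± 0.079, edgeR adjusted p = 0.00397). Neither acetyltransferase overlapped between drug and DMSO. HEXIM1 was 4221, 4383 and 4438 in DMSO and 4626, 4816 and 4983 in lapatinib, without overlap (0.15 ± 0.045, edgeR adjusted p = 0.0179), and the call was lost without FOXA1-pool DMSO replicate 1 (0.0709) or lapatinib replicate 3 (0.0528).

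The remaining members did not pass here. BRD2 was 9757, 9385 and 9681 normalized counts in DMSO and 10010, 9907 and 9881 in lapatinib, which did not overlap, yet the difference was 0.056 ± 0.037 (edgeR adjusted p = 0.217). CDK9 was 918.3, 1078 and 924.2 against 909.3, 1068 and 987.7, fully overlapping (0.030 ± 0.086, edgeR adjusted p = 0.785). CCNT1 (0.15 ± 0.085) and MLL2 (0.17 ± 0.14) had edgeR adjusted p = 0.157 and 0.321, and both passed with the replicate number entered as a block (0.0298 and 0.00311). With the block 7 members rose, where 34.5% of genes did.

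**Figure D2:**
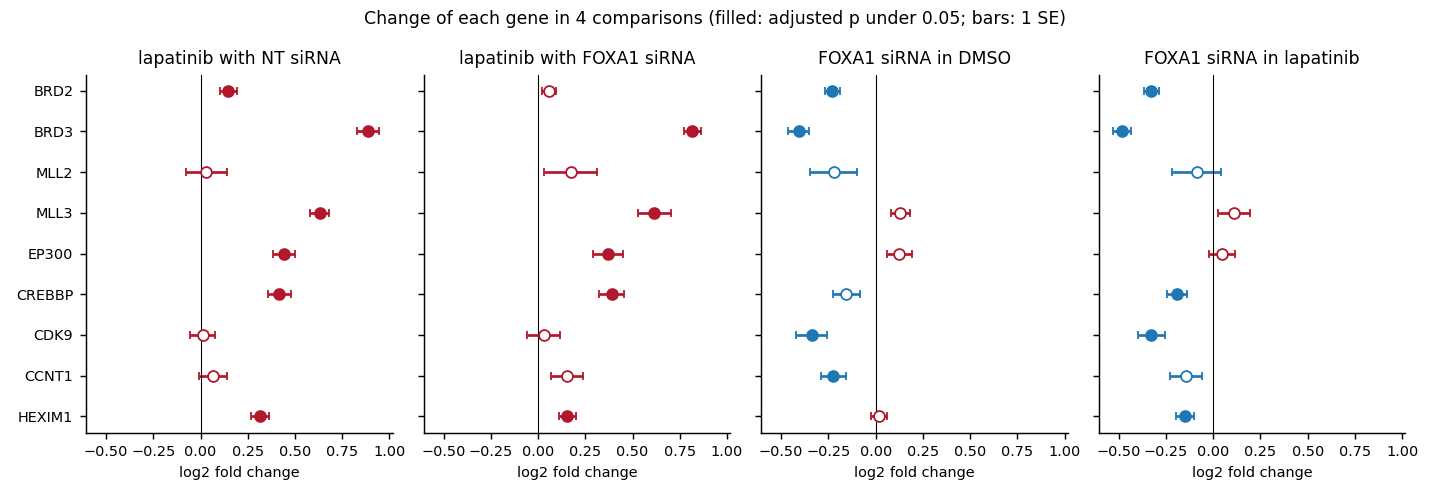
Log2 fold changes (x axes) of the 9 genes (rows) in the 4 comparisons (panels), with bars of 1 SE and filled points where the edgeR adjusted p was under 0.05. BRD3 had the largest rise with lapatinib in either siRNA (0.89 and 0.82) and the largest fall with the FOXA1 pool (-0.41 and -0.48), and CDK9 sat near 0 with lapatinib and near -0.33 with the FOXA1 pool.

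The lapatinib rises of the large members were read beside transcript length. EP300 (8760 bases in the files), CREBBP (10182), MLL3 (13388) and MLL2 (19415) all exceed 8 kb. In NT siRNA cells the 421 tested genes over 8 kb had a median log2 fold change of 0.22 with lapatinib, and 46.1% of them rose, against a median of 0.025 over all genes. In FOXA1-pool cells the median was 0.22 for long transcripts and 0.0060 for all. MLL3, EP300 and CREBBP lay above the median of their length class in each case, and MLL2 lay below it. BRD3, HEXIM1 and BRD2 belong to the class of 4 to 8 kb, with a median of 0.12 in NT siRNA cells and 0.091 in FOXA1-pool cells. BRD2 was close to that median in NT siRNA cells and below it in FOXA1-pool cells. The part of transcript length in these results was not tested.

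**Figure D3:**
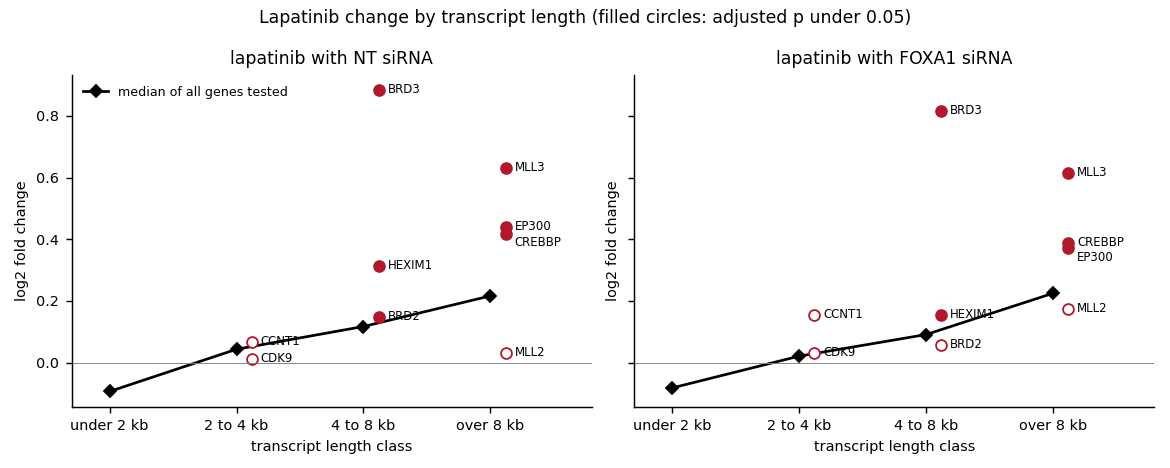
Median log2 fold change with lapatinib (y axes) of all genes tested in 4 classes of transcript length (x axes, black diamonds), with the 9 genes as circles at their own class, filled where the edgeR adjusted p was under 0.05. The class median climbed from -0.094 under 2 kb to 0.22 over 8 kb in NT siRNA cells, and BRD3 and MLL3 stood above their classes while MLL2 stood below.

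The FOXA1 pool was then compared with the NT pool in DMSO, which asks what the FOXA1 pool does without the drug. With a single FOXA1 pool, loss of FOXA1 and other effects of the pool cannot be told apart. BRD3, CDK9, BRD2 and CCNT1 fell, so that the BET readers and the P-TEFb subunits were lower, and no member rose. This was 4 of 9 members, where 21.3% of 13694 genes fell and 21.9% rose. None reached a log2 fold change of 1 in size, which 6.84% of genes passed. Libraries of the pools did not overlap for 4 members, all lower, where 27.5% of all genes were lower and 26.2% higher without overlap.

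BRD3 fell by 0.41 ± 0.055 on the log2 scale (edgeR adjusted p = 0.000778), from 1359 to 1452 normalized counts with NT siRNA to 1024 to 1066 with the FOXA1 pool. BRD2 fell by 0.23 ± 0.038 (edgeR adjusted p = 0.00217), with FOXA1-pool libraries at 9385 to 9757 and NT libraries at 10930 to 11790. Both readers fell without overlap of the groups.

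CDK9 fell by 0.34 ± 0.083 (edgeR adjusted p = 0.0126), from 1181 to 1314 normalized counts to 918.3 to 1078, and the call was lost without FOXA1-pool DMSO replicate 3 (0.0527). CCNT1 was 777.4, 695.1 and 681.5 normalized counts against 833.9 to 859.0 with NT siRNA and fell by 0.22 ± 0.068 (edgeR adjusted p = 0.0295). Neither overlapped, but the CCNT1 call was lost without NT DMSO replicate 1 (0.0904) or 3 (0.0759), or FOXA1-pool DMSO replicate 2 (0.0717) or 3 (0.104). HEXIM1 overlapped completely between the pools (4221 to 4438 against 4218 to 4407, 0.019 ± 0.043, edgeR adjusted p = 0.746).

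For the histone-modifying members, all over 8 kb, the outcome depended on the block. In DMSO the genes over 8 kb as a class were highest in replicate 1 and lowest in replicate 2 of each pool. Their median within-group log2 deviations were 0.033 and -0.055 with NT siRNA and 0.067 and -0.076 with the FOXA1 pool. With the FOXA1 pool in DMSO 31% of the class rose and 19.1% fell. The part of this shift in the calls was not tested. MLL2 (-0.22 ± 0.12), CREBBP (-0.16 ± 0.070), EP300 (0.13 ± 0.066) and MLL3 (0.13 ± 0.051) had edgeR adjusted p = 0.177, 0.110, 0.164 and 0.0702, and with the block these were 0.000835, 0.00620, 0.00582 and 0.00721. The blocked fit thus called 8 members, 6 lower and 2 higher, where 30.2% of genes fell and 30.3% rose. MLL2 was 4347, 3416 and 3418 normalized counts with the FOXA1 pool, overlapping the NT libraries, and in each replicate number it was below its NT counterpart. Without NT DMSO replicate 2 the unblocked fit called MLL2 (-0.32, adjusted p = 0.0435) and CREBBP (-0.21, adjusted p = 0.0269), and without FOXA1-pool DMSO replicate 2 it called MLL3 (0.16, adjusted p = 0.0386). Upper-quartile scaling brought MLL3 to edgeR adjusted p = 0.04995, just under the threshold, so that it was called there.

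In lapatinib the FOXA1 pool was compared with the NT pool to ask which of these genes stay lower under the drug. BRD3, BRD2, CDK9, CREBBP and HEXIM1 fell, which was 5 of 9 members where 22.2% of 13727 genes fell. No member rose (22.7% of genes did), and none reached a log2 fold change of 1 in size (8.41% of genes). Libraries of the pools did not overlap for 5 members, all lower, where 27% of all genes were lower and 28.4% higher without overlap. BRD3 fell by 0.48 ± 0.049 (edgeR adjusted p = 0.000145), from 2471 to 2672 normalized counts to 1829 to 1851. BRD2 fell by 0.33 ± 0.039 (edgeR adjusted p = 0.000309), from 12060 to 12590 to 9881 to 10010. The readers again showed no overlap, and BRD3 with both treatments stayed above its level in NT siRNA and DMSO.

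CDK9 fell by 0.33 ± 0.069 (edgeR adjusted p = 0.00574), from 1221 to 1241 normalized counts to 909.3 to 1068. CREBBP fell by 0.19 ± 0.054 (edgeR adjusted p = 0.0212), from 4084 to 4296 to 3540 to 3950. HEXIM1 fell by 0.15 ± 0.048 (edgeR adjusted p = 0.0364), from 5075 to 5434 to 4626 to 4983. None of these groups overlapped, but the latter calls were fragile. CREBBP was lost without NT lapatinib replicate 1 (0.0718) or FOXA1-pool lapatinib replicate 2 (0.0613) or 3 (0.0780), and HEXIM1 without NT lapatinib replicate 2 (0.0676) or 3 (0.106), FOXA1-pool lapatinib replicate 1 (0.116) or 2 (0.0681), or with upper-quartile scaling (0.0619).

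CCNT1 was 870.0, 773.7 and 737.0 normalized counts with the FOXA1 pool in lapatinib, overlapping the NT libraries (-0.14 ± 0.087, edgeR adjusted p = 0.212, and 0.0257 with the block). MLL3 was 0.11 ± 0.084 (edgeR adjusted p = 0.322, and 0.0398 with the block). EP300 (0.047 ± 0.070) and MLL2 (-0.086 ± 0.13) had edgeR adjusted p = 0.614 and 0.620 and did not pass with the block. The blocked fit called 6 members lower and 1 higher, where 31.1% and 30.6% of genes were.

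Whether the lapatinib response differed between the pools was asked by an interaction term over all 12 libraries. No member passed without the block in edgeR, where 3.99% of 14012 genes had a more positive and 3.2% a more negative response with the FOXA1 pool. DESeq2 called none either. At an unadjusted edgeR p under 0.05 there was 1 member, where 12.4% of all genes had a more positive and 9.85% a more negative response. That member was HEXIM1, whose interaction was -0.15 ± 0.062 on the log2 scale, a smaller response with the FOXA1 pool (edgeR adjusted p = 0.183). With the block its adjusted p was 0.0215, and it was the only member called of the 9. Of all genes, 9.22% had a more negative and 11.1% a more positive response in that fit. The interaction was -0.056 ± 0.066 for BRD3 and -0.078 ± 0.054 for BRD2.

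The balance between partners and paralogs was followed as ratios of TPM within each library. With 3 libraries against 3 the exact two-sided permutation test cannot go below p = 0.1, and over the 20 ratio tests the lowest Benjamini-Hochberg adjusted value was 0.154, so that no ratio could pass. HEXIM1 stood at 1.78 ± 0.109 (SD, n = 3) times CDK9 in NT siRNA and DMSO, 2.19 ± 0.0623 in NT siRNA and lapatinib, 2.28 ± 0.194 in FOXA1 pool and DMSO and 2.49 ± 0.164 with both. The inhibitor to kinase ratio was higher without overlap with lapatinib in NT cells and with the FOXA1 pool in either DMSO or lapatinib (exact permutation p = 0.1 each), and overlapped for lapatinib within FOXA1-pool cells (exact permutation p = 0.3). In the NT cells this ratio moved with HEXIM1 counts, and in the FOXA1-pool DMSO cells with CDK9 counts, as given above.

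HEXIM1 to CCNT1 was 2.64 ± 0.0984 in NT siRNA and DMSO and 3.13 to 3.17 as the mean of each other group. BRD3 to BRD2 was 0.103 ± 0.00731 in NT siRNA and DMSO, 0.172 ± 0.00751 with lapatinib, 0.0915 ± 0.00359 with the FOXA1 pool and 0.156 ± 0.0036 with both, so that BRD3 gained on its paralog with the drug in every library (log2 differences of 0.74 and 0.77, exact permutation p = 0.1 each).

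CREBBP to EP300 separated by siRNA pool. It was 0.541 ± 0.0143 in NT siRNA and DMSO and 0.532 ± 0.0101 in lapatinib, overlapping (exact permutation p = 0.5), and 0.445 ± 0.00558 and 0.452 ± 0.0178 in the FOXA1 pool without and with lapatinib. Every FOXA1-pool library was below every NT library in DMSO and in lapatinib (log2 differences of -0.28 and -0.24, exact permutation p = 0.1 each). MLL3 to MLL2 was 1.70 ± 0.217 in NT siRNA and DMSO and 2.48 ± 0.145 with lapatinib, and 2.11 ± 0.221 and 2.85 ± 0.233 in the FOXA1 pool, and drug and DMSO did not overlap in either pool.

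**Figure D4:**
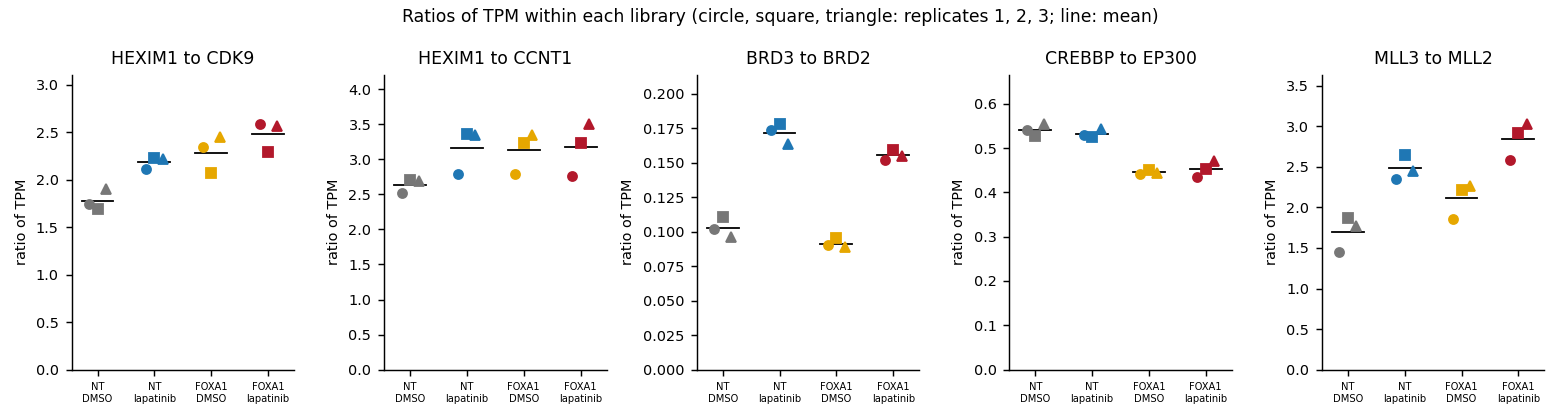
Ratios of TPM within each library (y axes, from 0) for 5 pairs of genes in the 4 groups (x axes), with a point per library shaped by replicate number and a line at the mean. BRD3 to BRD2 separated by drug (0.103 and 0.0915 in DMSO against 0.172 and 0.156 in lapatinib), and CREBBP to EP300 separated by siRNA (0.541 and 0.532 with NT against 0.445 and 0.452 with FOXA1).

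Around the members, 107 other genes of their complexes and of elongation were tested. With lapatinib in NT siRNA cells 37 rose (34.6%) and 30 fell (28%), near the 30.5% and 29.2% of all genes, and the median log2 fold change was 0.033 beside 0.025 over all genes. In FOXA1-pool cells lapatinib raised 37 (34.9%) and lowered 26 (24.5%) of 106, where 29.0% and 29.1% of all genes were called. With the FOXA1 pool in DMSO 16 rose (15.1%, against 21.9% of all genes) and 39 fell (36.8%, against 21.3%) of 106 tested, with a median of -0.099 beside -0.0053. In lapatinib 14 rose (13.1%, against 22.7%) and 35 fell (32.7%, against 22.2%) of 107, with a median of -0.11 beside -0.0052. With the block lapatinib raised 42 (39.3%) and lowered 36 (33.6%) in NT cells, where 34.5% and 32.8% of all genes were called. In FOXA1-pool cells it then raised 42 (39.6%) and lowered 33 (31.1%), against 34.5% and 34.1% of all genes. FOXA1 siRNA with the block raised 20 (18.9%) and lowered 48 (45.3%) in DMSO, against 30.3% and 30.2%. In lapatinib it raised 18 (16.8%) and lowered 50 (46.7%) with the block, against 30.6% and 31.1%. The counts of single lists that follow are to be read against the same shares of all genes.

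Among the other 7SK partners, HEXIM2, a paralog of HEXIM1, rose with lapatinib in NT cells from 120.2 ± 16.5 to 173.4 ± 22.0 normalized counts (0.55 ± 0.15, edgeR adjusted p = 0.0143) and in FOXA1-pool cells (0.55 ± 0.13, adjusted p = 0.00737). LARP7, which binds the 7SK RNA, rose in NT cells (0.19 ± 0.057, edgeR adjusted p = 0.0203) and was 0.14 ± 0.056 in FOXA1-pool cells (adjusted p = 0.0635, and 0.0225 with the block). MEPCE, the 7SK capping enzyme, was 0.11 ± 0.078 in NT cells (edgeR adjusted p = 0.264) and rose in FOXA1-pool cells (0.23 ± 0.087, adjusted p = 0.0482). CCNT2, the other T-type cyclin, did not pass in any comparison (log2 fold changes of -0.027, -0.086, -0.028 and -0.094 in the order of the comparisons above). Thus 2 of the 4 tested P-TEFb and 7SK genes outside the members rose with lapatinib in each pool. None passed for FOXA1 siRNA in DMSO or in lapatinib without the block, and with it MEPCE was lower in each (-0.23, edgeR adjusted p = 0.000121, and -0.11, adjusted p = 0.0246).

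In the super elongation complex, which carries P-TEFb to paused genes, the scaffold AFF1 fell with the FOXA1 pool, from 2416 ± 155 to 1070 ± 13.1 normalized counts in DMSO (-1.16 ± 0.057, edgeR adjusted p = 8.75e-06), and again in lapatinib (-1.04 ± 0.047, adjusted p = 5.86e-06). The elongation factor ELL2 went the other way, from 786.3 ± 34.3 to 1729 ± 86.3 in DMSO (1.15 ± 0.062, edgeR adjusted p = 1.25e-05) and again in lapatinib (1.69 ± 0.058, adjusted p = 3.35e-06). MLLT1, a reader subunit, fell in DMSO (-0.83 ± 0.070, edgeR adjusted p = 8.16e-05) and in lapatinib (-0.66 ± 0.064, adjusted p = 0.000112). Of the super elongation and other polymerase kinase genes, 2 rose and 7 fell of 15 tested with the FOXA1 pool in DMSO (median -0.14), and 7 rose and 5 fell of 16 with lapatinib in NT cells (median 0.017), where MLLT3 rose by 0.72 ± 0.089 (edgeR adjusted p = 0.000182).

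Of the genes that work with MLL2 and MLL3, the histone demethylase KDM6A, a subunit of their complexes, rose with lapatinib in NT cells from 1910 ± 121 to 2764 ± 23.2 normalized counts (0.55 ± 0.057, edgeR adjusted p = 7.04e-05) and in FOXA1-pool cells (0.28 ± 0.053, adjusted p = 0.00213). In lapatinib KDM6A was lower with the FOXA1 pool (-0.25 ± 0.045, edgeR adjusted p = 0.00253), and its interaction was -0.26 ± 0.076 (adjusted p = 0.0603, and 0.0130 with the block). Of the 13 KMT2 family and complex genes tested outside the members, KDM6A included, 5 rose and 4 fell with lapatinib in NT cells. With the FOXA1 pool 1 rose and 7 fell in DMSO and in lapatinib alike. The core subunit ASH2L fell with the FOXA1 pool in DMSO (-0.64 ± 0.072, edgeR adjusted p = 0.000344) and by 0.75 ± 0.070 in lapatinib (adjusted p = 9.58e-05). C16orf53, a subunit particular to MLL2 and MLL3 complexes, fell by 0.67 ± 0.052 in DMSO (edgeR adjusted p = 5.82e-05) and in lapatinib (-0.33 ± 0.058, adjusted p = 0.00205).

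Of 7 other coactivators listed with the acetyltransferases and tested, 5 rose and 2 fell with lapatinib in each pool (medians of 0.36 and 0.21). The 2 that fell were KAT2A and CARM1, and CARM1 is a methyltransferase and not an acetyltransferase. CARM1 was -0.17 in NT cells (edgeR adjusted p = 0.0183) and -0.14 in FOXA1-pool cells (adjusted p = 0.0300). KAT2A and KAT2B, paralogous acetyltransferases, moved apart in each pool. KAT2A fell from 3812 ± 355 to 2239 ± 61.2 normalized counts in NT cells (-0.75 ± 0.069, edgeR adjusted p = 3.96e-05) and in FOXA1-pool cells (-0.45 ± 0.046, adjusted p = 7.56e-05). KAT2B rose in NT cells (0.72 ± 0.067, edgeR adjusted p = 4.18e-05) and by 0.85 ± 0.099 in FOXA1-pool cells (adjusted p = 0.000157). Of 14 pausing and elongation factors, 3 rose and 4 fell with lapatinib in NT cells (5 and 5 with the block), among them SSRP1, a subunit of the histone chaperone FACT, which fell from 10940 ± 811 to 6594 ± 251 normalized counts (-0.71 ± 0.059, edgeR adjusted p = 2.48e-05). With the FOXA1 pool 1 rose and 7 fell of the 14 in DMSO. The Mediator subunit MED1, which bridges enhancer factors to polymerase, was -0.13 ± 0.054 with lapatinib in NT cells (edgeR adjusted p = 0.0655, and 0.0118 with the block), -0.081 ± 0.056 in FOXA1-pool cells (adjusted p = 0.243, and 0.0246 with the block) and -0.0067 and 0.037 for FOXA1 siRNA in DMSO and in lapatinib.

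The genes with the profiles nearest to the 3 members of widest range were found by the root mean square difference of centred log2 normalized counts over the 12 libraries, among 10811 genes. For BRD3 they were SH3YL1 (0.062) and PNPLA2 (0.063), where the median gene was at 0.54. PNPLA2, the adipose triglyceride lipase, was 6126 ± 153 normalized counts in NT siRNA and DMSO, 10890 ± 365 with lapatinib, 4706 ± 298 with the FOXA1 pool and 7667 ± 427 with both. For MLL3 they were HEATR5B (0.075) and AKAP13 (0.075) and for CREBBP they were CHD3 (0.052) and SOS1 (0.054), with medians of 0.41 and 0.34 over all genes.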

How the data were processed

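Poly(A) RNA of 12 SKBR-3 libraries was sequenced, and the labels name both a KAPA stranded kit and an Illumina TruSeq v2 kit. Strand use in counting is not given in the sources used here, so overlapping and antisense transcripts cannot be told apart. The authors made the estimated counts (expected counts) with RSEM and deposited them per gene with TPM, FPKM and a scaled signal column. The submitters' processing notes also name DESeq, DESeq2 1.12.3 and R 3.2.2. The FPKM and signal values deposited by the authors were not tested. Estimated counts were rounded, genes that reached 10 counts in any fitted library were kept, and edgeR 4.0.16 (TMM, quasi-likelihood F test, R 4.3.3) was fitted per comparison on 6 libraries, with the interaction on 12. Benjamini-Hochberg adjustment ran over all genes tested, and calls used an adjusted p under 0.05. The procedure was tested on simulated data. Exact permutation tests used scipy 1.17.1, and alternatives included DESeq2 1.42.0. TPM deposited by the authors served for levels and ratios.

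Groups and replicate numbers came from the labels. Same-numbered libraries deviated from their group means together (correlations of 0.259 to 0.695 in 18 pairs over 10812 genes), so the numbers pair the samples, and a fit with the replicate number as a block is given where it changes a call. The labels state 48 hours of siRNA before the drug, and the study's methods differ from the labels on this time. The genes named were the 9 members, 7 fixed partners, FOXA1, the nearest profiles, and up to 3 context genes per direction and comparison with the largest called change at a mean normalized count of at least 100. CARM1 is named beside them to describe its list. The members and lists were chosen with earlier results of these data known. Some genes that the naming rule covers are not reported here.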

Additional observations from a re-analysis of the deposited data

Results flagged for a closer look

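HEXIM1 responded differently to lapatinib with the FOXA1 pool than with NT siRNA when the replicate block was used, by the test of the difference itself (interaction -0.15 on the log2 scale, edgeR adjusted p = 0.0215), while without the block the adjusted p was 0.183. Its drug response was 0.31 with NT siRNA and 0.15 with the FOXA1 pool. It was the only member called of the 9 with the block, where 9.22% of all genes had a more negative response and 11.1% a more positive one. The HEXIM1 interaction was called in 1 of 21 alternative fits.

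Of 107 context genes, the same test without the block called 5 more positive (4.67%) and 3 more negative (2.8%) with the FOXA1 pool. The shares of all genes were 3.99% and 3.2%, so the context genes were near them. Results are given for 5 of the genes that passed, taken by the naming rule. The lapatinib response was more positive with the FOXA1 pool for ELL2 (0.56 ± 0.081 SE, edgeR adjusted p = 0.00240), whose mean normalized counts were 786.3 in DMSO and 639.0 in lapatinib for NT siRNA, and 1729 and 2075 for the FOXA1 pool. It was also more positive for SSRP1 (0.38 ± 0.082, adjusted p = 0.0165). It was more negative for the nuclear receptor coactivator NCOA2 (-0.38 ± 0.091, adjusted p = 0.0256), the corepressor NCOR1 (-0.31 ± 0.078, adjusted p = 0.0327) and the deacetylase HDAC1 (-0.24 ± 0.053, adjusted p = 0.0171).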

How the results depend on the processing

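The number of members called stayed within 1.5 times the reported value under RLE or upper-quartile scaling, DESeq2, either filter and a model of all 12 libraries. With a log2 fold change minimum of 1 it was 0 in all 4 comparisons. At adjusted p under 0.01 it was 2 for FOXA1 siRNA in DMSO and 3 in lapatinib. The replicate block gave 8 for FOXA1 siRNA in DMSO, 7 for FOXA1 siRNA in lapatinib and for lapatinib with the FOXA1 pool, and 1 for the interaction. Leaving out a library, or all libraries of a replicate number (chosen after seeing the data), gave 5 to 6 members for lapatinib with NT siRNA, 4 to 5 with the FOXA1 pool, 2 to 7 for FOXA1 siRNA in DMSO, 2 to 4 in lapatinib and 0 for the interaction. The calls over all genes moved as well. For FOXA1 siRNA in DMSO, 1454 genes rose and 1348 fell of 13620 without all replicate 1 libraries. Without all replicate 2 libraries, 3716 rose and 3792 fell of 13547. For the interaction 0 of 13953 genes passed without replicate 1 and 1 of 13917 without replicate 3. The count of 0 members there thus says little about the members. Without all replicate 2 libraries the members called in the 4 comparisons were 5, 5, 7 and 3. There CREBBP (edgeR adjusted p = 0.0542) and HEXIM1 (0.0643) were no longer called for FOXA1 siRNA in lapatinib, and MLL2, MLL3 and CREBBP were called in DMSO. Without all replicate 1 or all replicate 3 libraries CDK9 was not called for FOXA1 siRNA in DMSO (0.121 and 0.0846) or in lapatinib (0.0673 and 0.0683). BRD3, MLL3, EP300 and CREBBP stayed called with lapatinib in both pools in all 16 alternative fits, as did BRD3 and BRD2 with FOXA1 siRNA.

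Signs turned only for values that were not called, most of them near 0, with the MLL2 interaction (0.16) the largest. CDK9 with lapatinib and NT siRNA was -0.0067 (RLE), -0.0066 (DESeq2), -0.019 (no filter), -0.00020 (10 counts in every library) and -0.010 (all 12 libraries), and MLL2 was -0.0026 with no filter. The MLL3 interaction was 0.0000 with upper-quartile scaling and 0.0034 with no filter. The log2 difference of HEXIM1 to CCNT1 for FOXA1 siRNA in lapatinib was -0.0028 with normalized counts in place of TPM. With libraries left out, ranges that crossed 0 were, for CDK9, -0.046 to 0.036 (lapatinib, NT), -0.022 to 0.11 (lapatinib, FOXA1 pool) and -0.028 to 0.11 (interaction), and for MLL2, -0.093 to 0.14 (lapatinib, NT), -0.26 to 0.010 (FOXA1 siRNA in lapatinib) and -0.0078 to 0.28 (interaction). The interaction ran from -0.080 to 0.064 for CREBBP, -0.13 to 0.013 for EP300 and -0.099 to 0.074 for MLL3. EP300 with FOXA1 siRNA in lapatinib ran from -0.037 to 0.10, and HEXIM1 with FOXA1 siRNA in DMSO from -0.0025 to 0.040. The HEXIM1 to CCNT1 difference ran from -0.062 to 0.11 (lapatinib, FOXA1 pool) and -0.086 to 0.098 (FOXA1 siRNA in lapatinib), and CREBBP to EP300 from -0.0054 to 0.051 (lapatinib, FOXA1 pool). The causes were not tested. CCNT1 was the shallowest member, at 716 to 881 counts a library.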

Other observations

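Deacetylases remove the acetyl groups that EP300 and CREBBP place. HDAC5, a class IIa deacetylase, rose with lapatinib from 1344 ± 90.1 to 2830 ± 110 normalized counts in NT cells (SD, n = 3; log2 fold change 1.10 ± 0.068 SE, edgeR adjusted p = 6.77e-06) and by 0.77 ± 0.069 in FOXA1-pool cells (adjusted p = 4.35e-05). HDAC7, of the same class, fell by 0.77 ± 0.18 with lapatinib in FOXA1-pool cells (edgeR adjusted p = 0.00605). In NT cells HDAC7 was -0.42 ± 0.17 (edgeR adjusted p = 0.0640, and 0.00218 with the block). HDAC4 rose with the FOXA1 pool, by 0.71 ± 0.077 in DMSO (edgeR adjusted p = 0.000291) and 0.83 ± 0.095 in lapatinib (adjusted p = 0.000250), and the corepressor subunit TBL1X rose by 0.70 ± 0.14 in lapatinib (adjusted p = 0.00530). Of the 19 deacetylase and corepressor genes tested, 7 rose and 5 fell with lapatinib in NT cells and 5 rose and 5 fell with the FOXA1 pool in DMSO, where 30.5% and 29.2%, and 21.9% and 21.3%, of all genes did.

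CDK19, a kinase of the Mediator, rose with lapatinib from 1315 ± 147 to 2496 ± 78.0 normalized counts in NT cells (0.95 ± 0.081, edgeR adjusted p = 2.65e-05) and by 0.89 ± 0.11 in FOXA1-pool cells (adjusted p = 0.000244). The Mediator subunit MED22 fell by 0.62 ± 0.081 and 0.50 ± 0.067 in these comparisons (edgeR adjusted p = 0.000251 and 0.000349). MED28 rose with the FOXA1 pool in DMSO (0.82 ± 0.094, edgeR adjusted p = 0.000352) and in lapatinib (0.65 ± 0.081, adjusted p = 0.000410). CCNH, the cyclin of the CDK-activating kinase, fell with lapatinib in NT cells (-0.54 ± 0.075, edgeR adjusted p = 0.000396) and by 0.55 ± 0.063 in FOXA1-pool cells (adjusted p = 0.000142). Of the 33 Mediator genes tested, 8 rose and 10 fell with lapatinib in NT cells, where 30.5% and 29.2% of all genes did.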
